A study of Caenorhabditis elegans with 2 samples.

Results

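The genes described here encode the proteins of the mitochondrial ribosome. They were taken as all nuclear protein-coding genes of the Ensembl WBcel235 annotation (release 115) whose name starts with mrpl- (large subunit) or mrps- (small subunit), which gave 70 of 19973 genes, 41 of them mrpl and 29 mrps. The peaks come from ChIP-seq of NHR-25, a nuclear hormone receptor, in whole L3 larvae of Caenorhabditis elegans, males and females pooled. The single group held 2 biological replicates of the strain OP33, which carries the unc-119(ed3) allele and the transgene wgIs33. From this insertion the worms stably expressed NHR-25 with GFP and FLAG at its C terminus, and no untagged or wild-type group was analysed here. The antibody is labelled nhr-25, which does not settle whether the tagged protein alone was precipitated or the endogenous receptor too. The labels also do not say how the level of the tagged protein compares with that of the endogenous receptor. Whole worms were used, so strong binding in few cells and weak binding in many cannot be told apart.

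Mitochondria keep a small genome of their own and translate its few messages on a dedicated ribosome. The RNA of that ribosome is made inside the organelle, whereas its proteins are encoded in the nucleus, translated in the cytosol and imported. The large subunit carries the peptidyl transferase centre and the exit tunnel, and the small subunit decodes the message. In C. elegans, lowering of mitochondrial ribosomal proteins such as MRPS-5 is known to induce the mitochondrial unfolded protein response and to lengthen life. NHR-25 is the worm member of the SF-1 and FTZ-F1 receptor family and is known for its part in epidermal development and molting. Many C. elegans genes lie in operons, where a promoter ahead of the leading gene serves several genes and the later messages receive their 5′ end by trans-splicing.

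A gene was counted as carrying a promoter peak when at least 1 summit of the authors' reproducible peak list, cut by the irreproducible discovery rate (IDR), lay between 2000 bp upstream and 200 bp downstream of its annotated 5′ end. Of the 70 mitochondrial ribosomal protein genes, 23 did (32.9%, exact 95% interval 22.1 to 45.1), against 71 of 78 genes of the cytosolic ribosome (91.0%) and 3673 of all 19973 genes (18.4%). The interval covers the counting of genes alone, and genes that share a peak are not independent. The share of members was thus above that of all genes and far under that of the cytosolic ribosome; with 1 group and a list chosen by name, the differences were described and not tested. The large subunit held 14 such genes of 41 (34.1%) and the small subunit 9 of 29 (31.0%), with overlapping exact intervals (20.1 to 50.6% and 15.3 to 50.8%). These shares depended on the window: with 1000 bp upstream the large subunit held 12 of 41 (29.3%) and the small subunit 4 of 29 (13.8%), against 14.0% of all genes.

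The upstream sequences of mrps-7, mrpl-49, mrpl-28 and mrps-17 are printed as examples. They are 4 of the 5 members that kept a promoter peak under every setting tried. Those settings include a window of 500 bp and the nearest 5′ end only, so sites farther out or nearer to another gene are not shown. Each runs on the strand of the gene from 60 bp beyond the summit to the base before the annotated 5′ end, in the RefSeq genome of build WBcel235 (ce11). Capitals mark the 21 bases centred on the summit. The mrps-7 sequence is chrIV:14767731-14767971 (minus strand), that of mrpl-49 is chrV:12728381-12728630 (plus strand), that of mrpl-28 is chrII:156010-156201 (minus strand) and that of mrps-17 is chrIII:6431799-6432012 (minus strand). The fifth sequence, at chrV:12563384-12563486 (plus strand), is the whole gap between the gene sel-1 and mrps-5, which had no promoter peak, and is shown for contrast.
mrps-7: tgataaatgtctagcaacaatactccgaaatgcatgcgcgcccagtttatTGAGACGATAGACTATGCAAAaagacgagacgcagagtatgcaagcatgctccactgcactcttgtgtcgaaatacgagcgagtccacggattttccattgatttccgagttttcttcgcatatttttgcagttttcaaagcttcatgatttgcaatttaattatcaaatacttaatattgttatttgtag
mrpl-49: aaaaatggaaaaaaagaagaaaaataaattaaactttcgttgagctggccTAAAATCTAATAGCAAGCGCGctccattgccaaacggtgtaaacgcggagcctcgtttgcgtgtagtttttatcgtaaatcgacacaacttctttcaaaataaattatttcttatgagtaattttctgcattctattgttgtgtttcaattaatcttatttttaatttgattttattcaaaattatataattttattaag
mrpl-28: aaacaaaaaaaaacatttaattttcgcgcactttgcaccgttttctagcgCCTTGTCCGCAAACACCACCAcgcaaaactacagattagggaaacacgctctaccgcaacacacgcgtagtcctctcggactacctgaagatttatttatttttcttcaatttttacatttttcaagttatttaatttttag
mrps-17: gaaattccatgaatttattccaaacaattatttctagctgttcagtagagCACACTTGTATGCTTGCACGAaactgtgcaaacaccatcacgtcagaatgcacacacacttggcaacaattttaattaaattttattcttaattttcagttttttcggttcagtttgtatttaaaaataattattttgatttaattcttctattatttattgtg
mrps-5: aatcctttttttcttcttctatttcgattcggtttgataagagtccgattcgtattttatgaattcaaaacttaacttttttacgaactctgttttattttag
GC made up 38.2% of the mrps-7 sequence, 28.4% of that of mrpl-49, 37.0% of that of mrpl-28, 28.5% of that of mrps-17 and 27.2% of the mrps-5 gap. None of the 5 held CAAGGTC or CAAGGCC, the core of the DNA element known to be bound by this receptor family, on either strand.

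The strongest member peak lay 181 bp upstream of mrps-7, whose product RefSeq names uS7m, a small subunit protein with a bacterial counterpart. Its signal, the height the authors give per peak on a scale not given in the sources used here, was 108 in replicate 1 and 92.4 in replicate 2, and 205 in the pooled list. That placed it at rank 342 of the 5017 IDR peaks, and it was the only member peak among the 500 tallest. The mrpl-49 peak, 190 bp upstream of this gene for the large subunit protein mL49, had signals of 92.1 and 81.0 in replicates 1 and 2, and 173 pooled. mrpl-28, which encodes bL28m, followed with 83.1 and 77.6, and 166 pooled, at 132 bp upstream. These 3 peaks were intergenic, and each was slightly lower in replicate 2.

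Next in pooled signal was mrps-21, with 62.9 and 94.5 in replicates 1 and 2, and 151 pooled, at 1003 bp upstream. mrpl-23, which encodes uL23m, a protein at the exit of the nascent chain tunnel, had 47.3 and 101, and 149 pooled. Its summit lay 938 bp upstream, in an intron of fars-1, the preceding gene, which encodes a phenylalanyl-tRNA synthetase subunit. mrpl-15, for uL15m, had 49.0 and 77.4, and 128 pooled, at 634 bp upstream. All 3 were higher in replicate 2, and their summits were farther out than those of the 3 strongest. mrps-28 (44.4 and 56.6, 106 pooled) had its summit in an intron of the divergent neighbour Y43F8C.7, at 1016 bp. mrpl-17, for bL17m, was the reverse of these in its replicates (60.4 and 33.4, 94.9 pooled) and lay at 180 bp.

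mrpl-37, for mL37, had 38.5 and 49.4 in replicates 1 and 2, and 89.4 pooled. mrps-18.C followed with 40.4 and 37.9, and 79.6 pooled. mrpl-45 encodes mL45, which in mammals tethers the ribosome to the inner membrane, and had 40.3 and 35.0, and 77.6 pooled. mrps-17, for uS17m, closed the 12 strongest with 41.0 and 35.9, and 74.4 pooled. Of these 4, all but mrpl-37 were slightly lower in replicate 2. A further 7 members had pooled signals from 49.1 to 68.7, namely mrps-16, mrpl-55, mrpl-48, mrps-6, mrpl-40, mrpl-34 and mrpl-18. Of these mrps-6 was the most uneven, with 8.36 in replicate 1 and 32.4 in replicate 2 within 100 bp of the pooled summit; the highest replicate 1 region anywhere in its window had 21.5.

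Among the weakest members with a promoter peak, mrps-15, for uS15m, had 24.7 and 18.5 in replicates 1 and 2, and 46.0 pooled. mrpl-51, for mL51, had 25.6 and 19.3, and 45.9 pooled. For mrpl-9, whose product is bL9m, the signals were 18.3 and 25.3, and 44.9 pooled. The mS25 gene mrps-25 had 19.6 and 21.8, and 43.3 pooled. The lowest signal in the whole IDR list was 42.2, so these 4 stood just inside it. mrps-25 was also near the edge of the promoter window, with its summit at 1962 bp. Over the 23 members the strongest promoter peak had a median pooled signal of 74.4, against 167 for the 71 genes of the cytosolic ribosome and 83.9 for all 3673 genes with a promoter peak.

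**Figure D1:**
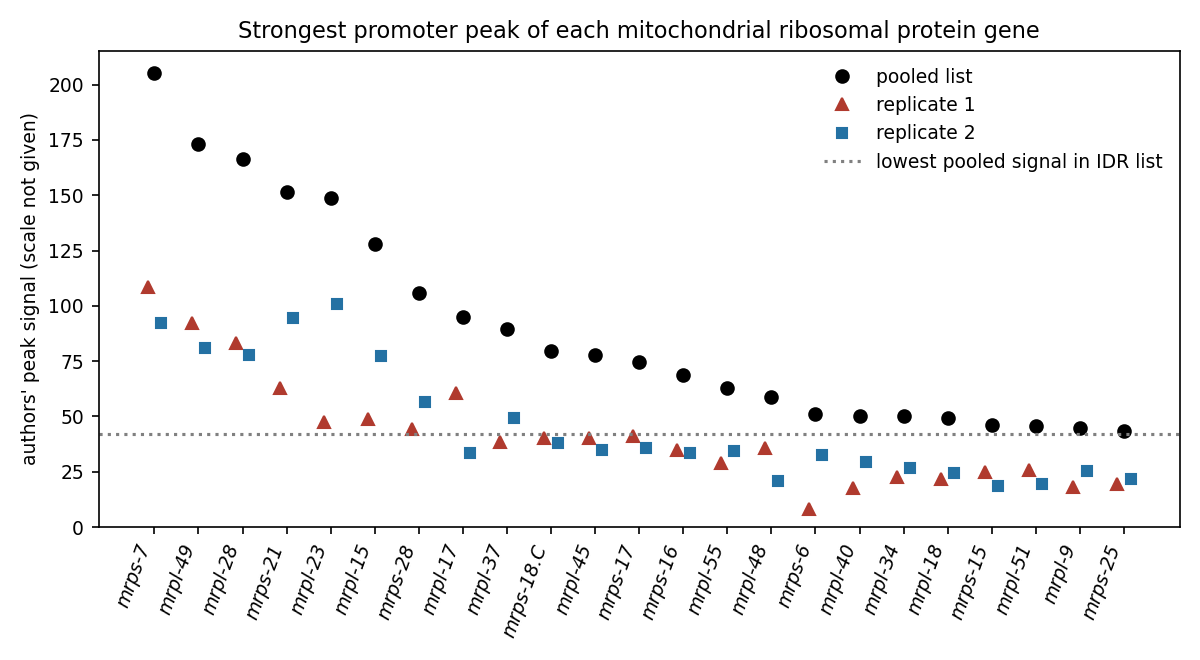
Authors' peak signal (vertical axis, scale not given) of the strongest promoter peak of each of the 23 mitochondrial ribosomal protein genes that had 1, in the pooled list (black circles), replicate 1 (red triangles) and replicate 2 (blue squares), sorted by pooled signal. The pooled values run from 205 at mrps-7 to 43.3 at mrps-25, just above the dotted line at 42.2, the lowest pooled signal of any IDR peak.

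The 23 members were served by 25 distinct peaks, since mrps-21 and mrpl-40 had 2 each and no peak lay in the windows of 2 members. All 25 had a summit within 100 bp in the region lists of both replicates. Among the 5017 highest-signal peaks of a replicate, 17 of the 25 (68.0%) were found in both replicates, 3 in replicate 1 only, 4 in replicate 2 only and 1, at mrps-25, in neither. For all 2870 IDR peaks in promoter windows the share found in both was 71.6%. Replicate 2 was higher at 14 of the 25, with a median log2 difference (replicate 2 over replicate 1) of 0.16 (SD 0.59), against 0.12 (SD 0.70) for all promoter peaks. The signals of the 2 replicates had a Spearman's rho of 0.81 over the 25 peaks, which share the same 2 libraries, and of 0.66 over 2705 promoter peaks matched in both. At the level of genes, 16 of the 70 members carried a promoter peak in the IDR list and in each replicate's highest 5017 (14.6% of all genes did).

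The summits were spread from close to the gene to the far end of the window. Of the 23 members 12 had their strongest summit within 500 bp upstream, from 48 bp at mrps-15 to 358 bp at mrpl-45, a further 2 lay at 634 and 640 bp, and 9 lay beyond 900 bp. Among these 9, mrpl-40 (1039 bp, 50.4 pooled) also had a second summit at 171 bp with 49.2 pooled. The share within 500 bp was 52.2%, against 56.8% of all genes with a promoter peak, summits downstream included. The median was 358 bp for the members, 295 bp for the genes of the cytosolic ribosome and 367 bp for all genes with a promoter peak. All far summits but that of mrpl-23 were nearer to the 5′ end of another gene. Of the 25 member peaks 22 were intergenic and 3 lay in introns of a neighbour, fars-1, Y43F8C.7 and rpn-8, a proteasome subunit gene next to mrps-6.

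**Figure D2:**
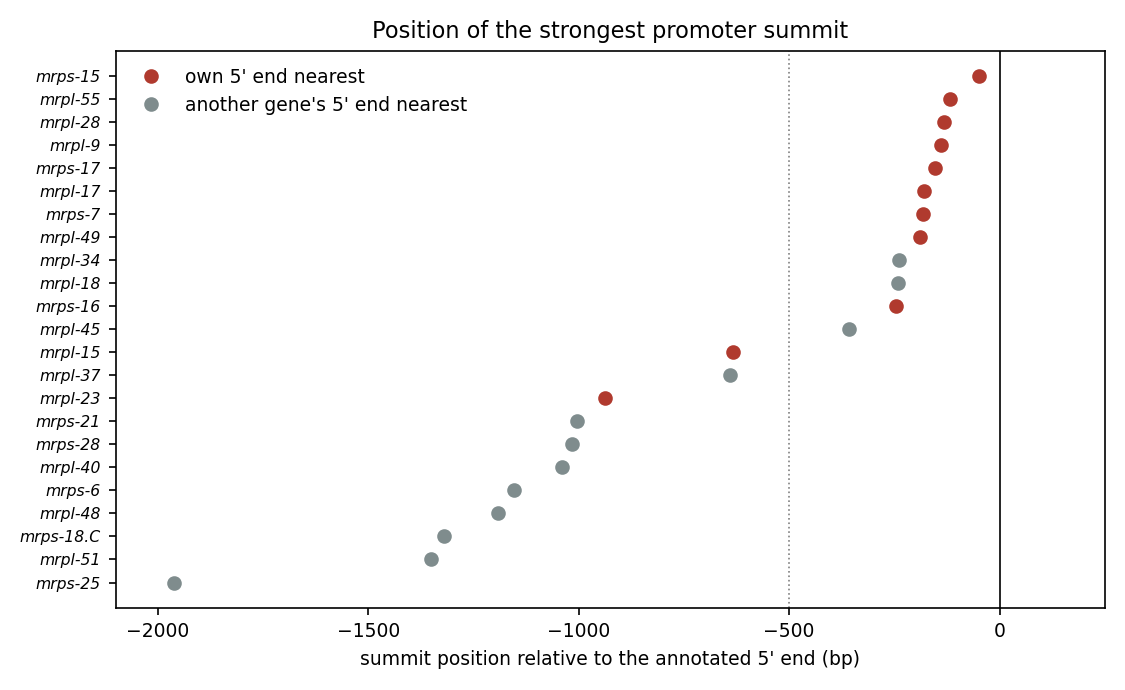
Position of the strongest promoter summit relative to the annotated 5′ end (horizontal axis, bp, negative is upstream) for the 23 members with a promoter peak. Red points mark the 11 members whose own 5′ end was the nearest of any protein-coding gene and grey points the other 12; all 8 summits nearer than 200 bp are red, while 8 of the 9 beyond 900 bp are grey.

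Most of these peaks could not be assigned to a mitochondrial ribosomal protein gene alone. Of the 25 member peaks 21 (84.0%) fell within reach of some other protein-coding gene's promoter window too, against 1032 of all 2870 promoter peaks. These counts are not like for like. Member peaks were reached through their genes, which favours peaks that lie in several windows, whereas each of the 2870 was counted once. For 12 of the 23 members the summit was closer to the 5′ end of a neighbour: it lay 217 bp from lin-38 for mrpl-37, 185 bp from vps-37 (an ESCRT-I gene) for mrpl-48, 136 bp from dcap-1 (an mRNA decapping gene) for mrps-25, and 54 bp from T14B4.3 for mrps-18.C. Those 12 would drop out if each summit were given to its nearest 5′ end, which left 11 of 70 members (15.7%), close to the 12.5% of all genes under that rule. The 11 were mrps-7, mrpl-49, mrpl-28, mrpl-23, mrpl-15, mrpl-17, mrps-17, mrps-16, mrpl-55, mrps-15 and mrpl-9. The mrpl-49 peak was the only member peak that was also in the window of a cytosolic ribosomal protein gene, rpl-28, which starts 519 bp away on the opposite strand.

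Members with and without a promoter peak differed in how they lie beside their neighbours. Of the 70 members 26 (37.1%) stood head to head with a neighbour, that is, on the opposite strand with 5′ ends at most 1000 bp apart, as did 60.3% of the genes of the cytosolic ribosome and 17.7% of all genes. Of these 26 members 15 carried a promoter peak (57.7%), against 46 of 47 cytosolic ribosomal protein genes and 31.2% of all genes in this arrangement. The strongest peaks of these 15 had a median pooled signal of 51.1, where the weakest IDR peak had 42.2. The median was 104 for the 8 members with a peak that were not head to head. It was 86.4 for all head-to-head genes with a promoter peak. These differences were not tested. The nearest 5′ end to the strongest summit was the partner's in 6 of the 15, the member's own in 6, and that of a further gene in 3, namely mrpl-40, mrpl-51 and mrps-25. The second summit of mrpl-40, almost as high, was nearest to its partner F54C4.4. The partners included kin-3 (casein kinase II, with mrpl-9), vbh-1 (a DEAD-box helicase, with mrpl-17), asg-1 (with mrps-15) and rpn-8. In a single case both partners were mitochondrial ribosomal protein genes: mrpl-1 and mrps-24 start 344 bp apart, and neither had an IDR summit. The highest signals in their windows were the same for both genes, 16.4 and 9.78 in replicates 1 and 2, and 29.9 pooled.

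A further 28 members (40.0%) followed closely on a gene of the same strand, with a 5′ end at most 500 bp from its 3′ end, as in operons. This was so for 10.3% of the genes of the cytosolic ribosome and 19.8% of all genes. These runs were drawn from spacing, and no operon annotation was used. Only 4 of the 28 had a promoter peak (14.3%), near the 15.9% of all genes so placed: mrpl-23, mrpl-48, mrps-18.C and mrps-21, each with its summit 938 bp or more upstream. mrps-5, for uS5m, was among the other 24. It starts 104 bp behind sel-1, and its window held no region in the replicate 1 list, a region of signal 6.49 in the replicate 2 list and 8.35 in the pooled list, at the very end of that list. The first gene of the run had a promoter peak for 18 of the 28 members (64.3%), against 30.0% of the 3956 genes of all kinds that follow on another; this comparison was chosen after the data had been seen. These leading genes included cct-2 (ahead of mrpl-50), atp-2, the ATP synthase beta subunit gene (mrps-26), rpn-3 (mrpl-32), eif-3.E (mrps-30) and natc-1, which heads a run that holds mrps-2 and mrpl-4. The run of mrps-22 starts at rpb-6 and also holds dap-3, itself the gene of a small subunit protein named without the prefix. Counting a peak of the leading gene as well, 37 of the 70 members were covered (52.9%), against 22.4% of all genes. By this rule only genes that follow another gain a further window, 40.0% of members and 19.8% of all genes, so these shares are not like for like. The remaining 16 members were neither head to head nor close behind a gene, and 4 of them had a promoter peak (exact 95% interval of the share 7.27 to 52.4%), against 1960 of 12533 genes of all kinds so placed (15.6%): mrpl-15, mrpl-28, mrpl-55 and mrps-16.

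**Figure D3:**
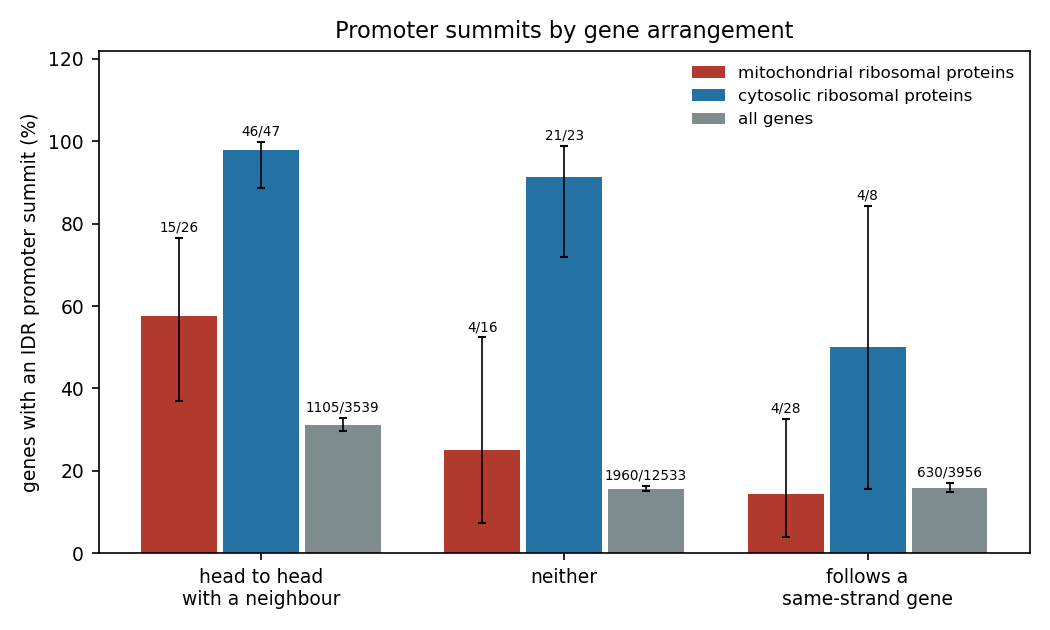
Share of genes with an IDR promoter summit (vertical axis, %) by arrangement, for mitochondrial ribosomal protein genes (red), cytosolic ribosomal protein genes (blue) and all nuclear protein-coding genes (grey); bars give the share, lines its exact 95% interval and labels the counts. Members reach 15 of 26 when head to head, 4 of 16 in neither arrangement and 4 of 28 when close behind a same-strand gene; 55 of all genes are in both arrangements and are drawn in both.

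The bases just ahead of the annotated 5′ ends were also read. In 54 of the 70 members (77.1%) the annotated 5′ end was preceded directly by AG, the last bases of a splice acceptor, against 27.6% of all genes. It was so in 25 of the 28 members that follow a same-strand gene. The share over all genes so placed was not counted. The mrps-7, mrpl-49, mrpl-28 and mrps-5 sequences printed above all end in these letters. An annotated 5′ end of this kind can be a trans-splice site, with the start of transcription farther upstream, so distances to summits are distances to the annotated end only. This count was chosen after the sequences had been seen.

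None of the 25 member peaks held CAAGGTC or CAAGGCC within 100 bp of the summit on either strand, which allows a share of up to 12%. The core was present at 175 of the 2870 promoter peaks (6.10%), a share that lies within that limit. Its longer form, which contains the core with a pyrimidine base before it and a purine base after it, was at 82 of them (2.86%). Of the 70 members none held the core in the 300 bp ahead of the 5′ end (up to 4.29%), against 2.25% of all genes. Of 3 other short words searched on both strands, GAGAGA was near 6 member summits (24.0%, against 36.4% of promoter peaks), TGATAA, a word known to be bound by the ELT factors, near 4 (16.0% against 13.0%) and TTTCAG, a splice acceptor word, near 5 (20.0% against 16.3%). These counts are matches of letters and say nothing about occupancy by any factor.

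Of the 47 members without a promoter peak, 34 (72.3%) had in the window a region of the pooled list of 30000, which also takes in background regions, against 37.4% of all 16300 genes without a promoter peak. In 24 of the 34 it lay within 500 bp upstream of the 5′ end or downstream of it, a share that was not counted for all genes. Their pooled signals ran from 8.35 at mrps-5 to 39.3 at mrpl-12, with a median of 21.7. The highest was mrpl-12, which encodes a protein of the ribosomal stalk, with 16.1 and 28.3 in replicates 1 and 2, and 39.3 pooled. mrpl-35 had 31.5 and 7.85, and 38.9 pooled, and was the most uneven of the 5 highest. mrpl-16 had 20.4 and 17.1, and 38.9 pooled. mrpl-47 had 24.4 and 11.8, and 37.5 pooled. mrps-35 had 20.3 and 16.1, and 36.3 pooled. All 5 pooled signals lay under the 42.2 of the weakest IDR peak. The replicate values are the highest in the window and need not belong to the pooled region. Both replicate lists held a region in the window for 29 of the 47 members, a single list did for 13, and neither did for mrpl-2, mrpl-10, mrpl-19, mrpl-21 and mrpl-54. These lists also take in background, and the regions of the 2 replicates were not matched in place. Beyond the window, the nearest IDR summit was at a median of 5958 bp, within 5000 bp for 20 members and beyond 10000 bp for 14. Neither the counts by replicate list nor these distances were taken over all genes, so they have no background beside them. The nearest misses upstream were mrpl-32 at 2588 bp and mrpl-20 at 2634 bp, and downstream mrps-23 at 1771 bp and mrpl-50 at 2040 bp.

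The share of members therefore depended strongly on how far down the pooled list the search went. Among the 500 highest pooled regions it was 1 of 70 members (1.43%), 31 of 78 genes of the cytosolic ribosome (39.7%) and 2.48% of all genes. Among the 1000 highest it was 5 members (7.14%), 61.5% and 4.67%, and among the 2508 highest it was 12 members (17.1%), 76.9% and 10.6%. With 10034 regions, 2 times the length of the IDR list and down to a signal of 21.3, it was 41 members (58.6%), 93.6% and 28.3%. With all 30000 regions it was 57 members (81.4%), 98.7% and 48.9%. The step beyond the IDR list thus brought in 18 further members, 16 of them with the region within 500 bp upstream or downstream of the 5′ end. How many of the further genes of all kinds had it so close was not counted. Genes of the cytosolic ribosome were mostly reached by the tallest peaks. Mitochondrial ribosomal protein genes were reached more by regions around and under the IDR limit, and so were all genes. Of the 57 members reached by all 30000 regions, 23 were reached by the 5017 of the IDR list. For all genes it was 3673 of 9773.

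**Figure D4:**
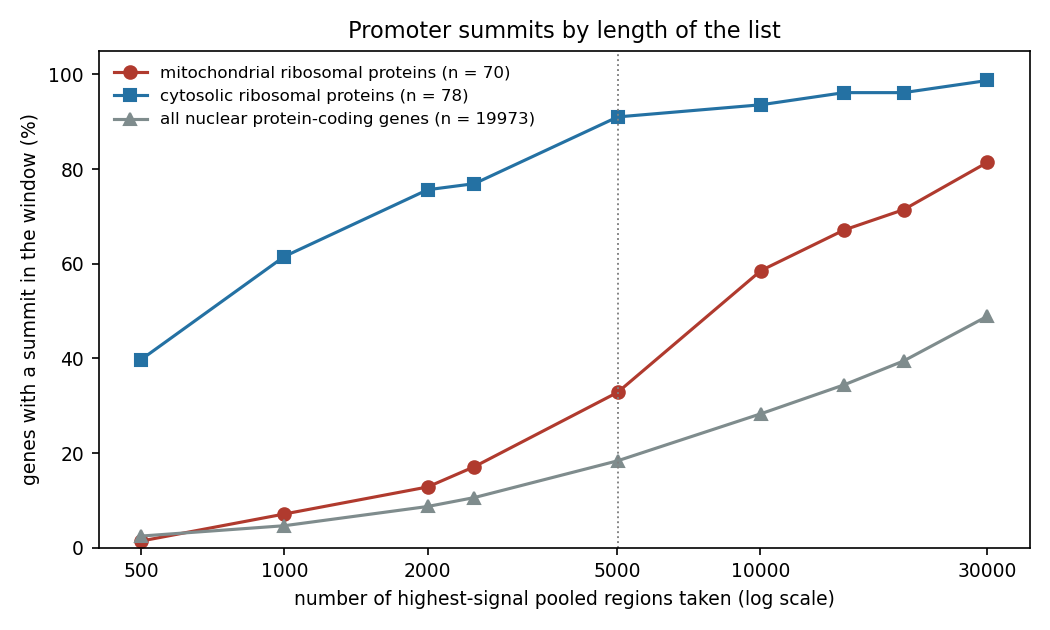
Share of genes with a summit in the promoter window (vertical axis, %) against the number of highest-signal pooled regions taken (horizontal axis, log scale), for mitochondrial ribosomal protein genes (red circles), cytosolic ribosomal protein genes (blue squares) and all nuclear protein-coding genes (grey triangles). The dotted line marks the 5017 regions of the IDR list, where the shares are 32.9%, 91.0% and 18.4%; at 10034 regions they are 58.6%, 93.6% and 28.3%.

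Other genes of mitochondrial gene expression and upkeep, from lists given by name, differed among themselves. Of 21 genes found in the annotation from a list of the mitochondrial genome, its transcription, translation factors and tRNA synthetases, 5 had a promoter peak (23.8%, exact 95% interval 8.22 to 47.2). This list also holds dap-3, which had none; without it the count was 5 of 20. The 3 highest were mtss-1, the single-stranded DNA-binding protein (60.7 and 90.5 in replicates 1 and 2, 138 pooled), aars-1, an alanyl-tRNA synthetase (74.4 and 63.9, 138 pooled), and ears-2, a glutamyl-tRNA synthetase (46.9 and 62.1, 108 pooled). The polymerase genes polg-1 and rpom-1 and the packaging factor gene hmg-5 had none. Of 12 genes of mitochondrial chaperones, proteases and stress signalling 10 had a promoter peak (83.3%, 51.6 to 97.9). hsp-60, the chaperonin, led (103 and 121, 223 pooled), followed by phb-2, a prohibitin (69.8 and 88.1, 159 pooled), and atfs-1, the transcription factor of the mitochondrial unfolded protein response (68.6 and 57.4, 128 pooled). haf-1 and lonp-1 had none. The members (32.9%) thus lay between these small lists, and their difference from either was not tested. The share of all genes was 18.4%, inside the interval of the first list. Some of these summits were closer to another gene. Genes whose own 5′ end was the closest to a summit numbered 2 of 21 (9.52%) and 6 of 12 (50%). By that stricter count it was 15.7% of members and 12.5% of all genes.

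The count of members varied with the window and the list used. The highest 5017 peaks of replicate 2 alone gave 21 members (30.0%, all genes 17.8%) and those of replicate 1 alone also 21 (30.0%, all genes 18.0%), of which 19 in each case were among the 23. A window of 1000 bp upstream gave 16 members (22.9%, all genes 14.0%) and 500 bp gave 13 (18.6%, all genes 11.2%). mrps-7, mrpl-49, mrpl-28, mrpl-17 and mrps-17 were counted under all 8 alternatives, and 29 of the 70 members under none, mrps-5 among them. These counts were not taken over all genes, so they have no background share beside them.

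**Figure D5:**
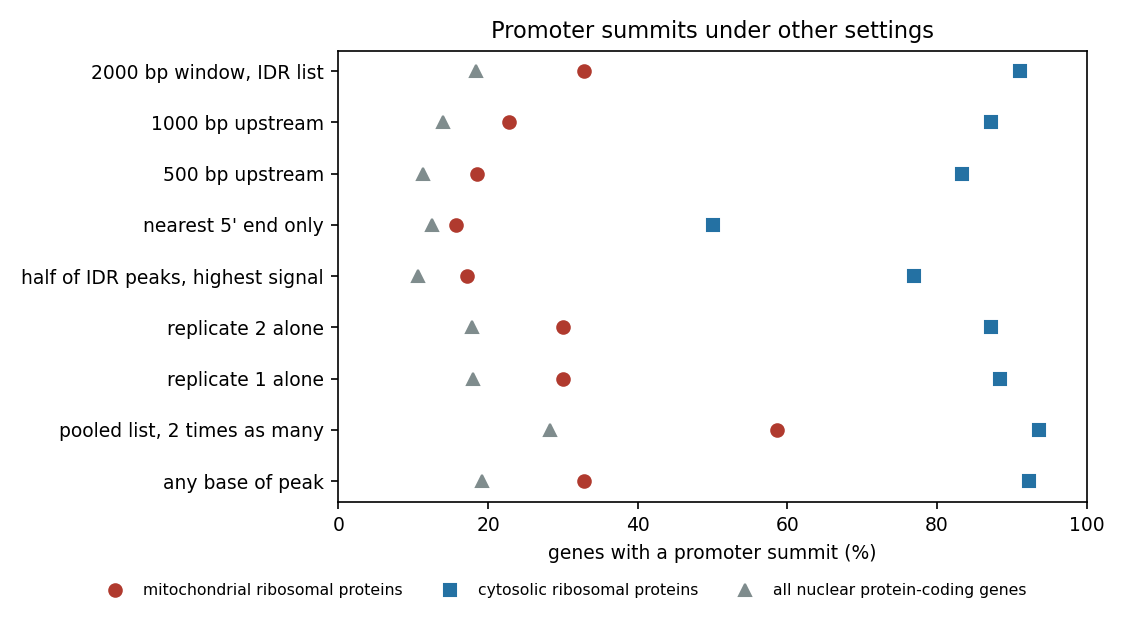
Share of genes with a promoter summit (horizontal axis, %) under the main setting (top) and 8 alternatives, for mitochondrial ribosomal protein genes (red circles), cytosolic ribosomal protein genes (blue squares) and all nuclear protein-coding genes (grey triangles). Members lie above all genes in each row, by the least when a summit is given to its nearest 5′ end only (15.7% against 12.5%).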

How the data were processed

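The authors deposited peak lists on ce11 and ce10; those on ce11 were used, the assembly of the Ensembl release 115 annotation and the RefSeq genome. Per the deposited index text, peaks were called per replicate against a control and on pooled replicates, and the IDR list was derived from the pooled and both replicate lists. Each replicate and pooled list holds 30000 regions, background included. The deposited signal is the authors' height per peak, and the deposited −log10 q-value was not used for ranking. The summit is the deposited offset. The sources used here name neither aligner nor peak caller. Read totals were not used, so the depth of each library is unknown. Coordinates are 1-based.

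Summits were assigned to windows around the 5′ end of each Ensembl gene with Python 3.11.15, pandas 2.3.3 and scipy 1.17.1. The assignment was tested on simulated summits. Exact intervals are Clopper-Pearson at 95%. The limit beside a count of 0 is 3 counts of the total. Replicate signals are those of the strongest summit within 100 bp, or for members without an IDR summit the highest in the window. The replicates are labelled as biological; whether they came from separate cultures is not stated. Values in full are given for the 12 strongest and 4 weakest members with a promoter peak, mrps-5, the 5 highest of those without, and the 3 highest genes of each named context list. Members and lists were chosen with earlier results of these data known. No test was run. Shares stand beside those of all genes where these were counted.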

Additional observations from a re-analysis of the deposited data

How the results depend on the processing

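The number of members with a promoter peak was 23 (14 large, 9 small subunit) in the main setting. It was 21 without either replicate, with 13 to 14 for the large and 7 to 8 for the small subunit, and 23 when any base of the peak counted. It moved by over 1.5 times with 500 bp upstream (13, of which 9 large and 4 small), with the nearest 5′ end only (11, of which 7 and 4), with the 2508 IDR peaks of highest signal (12, of which 7 and 5) and with the doubled pooled list (41, of which 25 and 16). With 1000 bp upstream it was 16, and that of the small subunit moved to 4. Each of these takes a smaller or larger window or list by construction. Peaks in the top lists of both replicates numbered 17 of 25 within 50, 100 or 200 bp, and 24 with 2 times as many top peaks. The median signal of the 25 peaks was 68.7 pooled and 33.4 to 35.8 in a single replicate, since the pooled height is near the sum of both. No member peak held the core element within 50 bp, in the whole interval or in its longer form. With autosomal genes alone as background the share of genes with a promoter peak was 18.2%. No paired analysis was possible because the study has a single group. Depth per library is unknown, so nothing can be said of what deeper sequencing would add.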

Other observations

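No mitochondrial ribosomal protein gene lies on the X chromosome, which holds 13.7% of all nuclear protein-coding genes, and 22 of the 70 (31.4%) lie on chromosome III, which holds 13.2%. On chromosome III, 4 of these 22 had a promoter peak (18.2%, all genes there 24.5%). On the other chromosomes it was 7 of 15 on I (46.7%, all genes 24.3%), 4 of 12 on II (33.3%, all genes 17.6%), 5 of 11 on IV (45.5%, all genes 16.3%) and 3 of 10 on V (30.0%, all genes 12.9%). The chromosomes were compared after the values had been seen, and the differences were not tested.

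In the naming of ribosomal proteins, low numbers are kept for proteins with a bacterial counterpart. Of 41 members with numbers up to 36 (large subunit) or 21 (small subunit), 14 had a promoter peak (34.1%), against 9 of 29 with higher numbers (31.0%). RefSeq product names give the class by the letters u, b or m for 51 members, and by these it was 12 of 32 with a bacterial counterpart (37.5%) and 7 of 19 without (36.8%). The product of mrps-18C, a gene apart from mrps-18.C, is named uL3m, a large subunit protein. That of mrpl-48 is titled only by a domain of the small subunit protein uS10. The class by number differed from the class by product name for mrps-24 (uS3m), mrpl-47 (uL29m), mrpl-34 (mL43) and mrpl-48. The subunit counts above go by the symbol.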
